A study of Homo sapiens with 8 samples.

Results

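The genes of fatty acid synthesis examined here are SREBF1, ACLY, ACACA, FASN and SCD, and their trimethylation of histone H3 at lysine 36 (H3K36me3) was measured by chromatin immunoprecipitation and sequencing (ChIP-seq). A peak was taken as a member when it overlapped the hg19 span of 1 of these 5 genes by at least 1 bp, which gave 20 of the 35375 control peaks and 32 of the 23488 peaks listed for the knockdown. The cells were HepG2, an established human hepatocellular carcinoma line. They stably carried either a non-specific control shRNA or an shRNA against SETD2. Both lines had been transduced with lentivirus in 4 µg/mL polybrene and selected in 1 µg/mL puromycin, so these treatments are shared by the groups. H3K36me3 immunoprecipitate and input DNA from each line made 4 groups of 2 replicates (8 libraries), and the replicates were pooled before peaks were called. Each condition therefore has 1 peak list, replicate error cannot be given, and the conditions are compared without a test. All intervals below are 95% intervals for counting error alone. The level of SETD2 and the liver markers of these cells were not analysed here.

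H3K36me3 is placed by SETD2, which travels with elongating RNA polymerase II, so the mark lies over the bodies of transcribed genes and usually builds up towards their ends. In the liver, and in cell lines derived from it, citrate exported from mitochondria is turned into fatty acids by a short chain of enzymes. ACLY (ATP citrate lyase) splits citrate to give acetyl-CoA, ACACA (acetyl-CoA carboxylase alpha) makes malonyl-CoA from it, FASN (fatty acid synthase) builds palmitate, and SCD (stearoyl-CoA desaturase) adds a double bond to saturated chains. SREBF1 encodes the SREBP-1 transcription factors, which switch on the genes of these enzymes.

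In the control list a peak began 324 bp after the start of the SCD span, 473 bp after that of SREBF1 and 13.0 kb after that of ACLY. The 250 bases before a RefSeq transcription start of these genes (GRCh38.p14, written along the gene's own strand) are shown. The distances above are from the edge of the hg19 span. The RefSeq starts were not placed on hg19, so the ACLY promoter shown can lie nearer to its peak than 13.0 kb. Capitals mark CCAAT, bound by NF-Y, and GGGCGG, bound by Sp1 and its relatives, on either strand, so they also appear as ATTGG and CCGCCC.
SCD, chr10:100346983-100347232, plus strand: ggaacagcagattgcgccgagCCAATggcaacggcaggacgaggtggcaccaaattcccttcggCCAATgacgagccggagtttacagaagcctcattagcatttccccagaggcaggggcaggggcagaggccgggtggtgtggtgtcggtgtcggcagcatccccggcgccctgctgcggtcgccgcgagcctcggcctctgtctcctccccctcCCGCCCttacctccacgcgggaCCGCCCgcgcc
SREBF1, chr17:17836987-17837236, minus strand: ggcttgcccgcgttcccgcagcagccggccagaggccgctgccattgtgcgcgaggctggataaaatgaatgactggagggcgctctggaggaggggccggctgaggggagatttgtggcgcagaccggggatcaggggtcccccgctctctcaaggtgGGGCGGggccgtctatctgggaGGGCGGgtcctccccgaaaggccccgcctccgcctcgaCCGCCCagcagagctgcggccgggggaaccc
ACLY, chr17:41919023-41919272, minus strand: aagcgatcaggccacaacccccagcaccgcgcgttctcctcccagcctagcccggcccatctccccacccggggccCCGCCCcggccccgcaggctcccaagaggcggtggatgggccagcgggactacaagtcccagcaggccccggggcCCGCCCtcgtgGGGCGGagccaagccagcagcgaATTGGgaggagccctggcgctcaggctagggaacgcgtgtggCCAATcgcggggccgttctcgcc

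The RefSeq promoter table held 7 windows for 4 of the 5 genes (3 for ACACA and 2 for ACLY). Each window ran from 250 bases before to 50 after a start. CCAAT was found in 5 of the 7, against 34.6% of all 35116 promoter windows, and GGGCGG in 6 of the 7, against 45.0%. The 2 ACLY windows overlap and share their CCAAT and GGGCGG sites, so windows of 1 gene are not independent. The share of G and C was 66.3 to 82.3% in all of these windows but the third of ACACA (45.3%). Its median over all promoter windows was 58.7%. The part of base composition in the motif shares was not tested. SCD held CCAAT at -229 and -186 and ACLY held an ATTGG at -65 and a CCAAT at -23, counted from the start. SREBF1 had no CCAAT in its window but held GGGCGG at -91 and -69 and CCGCCC at -31. The core TCACNCCAC of a sterol regulatory element, the site of SREBP, was in 0 of the 7 windows and in 1.13% of all promoters, and the E-box CACGTG was in 0 of the 7 and 7.26% of all. Both motifs were also searched on both strands. These matches describe letters in these windows only.

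All 5 genes carried H3K36me3 peaks in control cells, and all but ACLY did so after SETD2 knockdown, which leaves 4. Of the 20 control peaks, 15 were overlapped by a knockdown peak, where 39.5% of all control peaks were. Of these 15, 12 were in ACACA, under 17 knockdown peaks with a median false discovery rate of 71.3% (from 5.02 to 92.7%). The 5 control peaks without a knockdown peak were the single ACLY peak, 3 of the 4 SREBF1 peaks and 1 of the 13 ACACA peaks. Peaks covered 206.8 kb of the 452.0 kb of gene span in the control and 179.4 kb after knockdown, so the total after knockdown was 86.7% of that in the control, against 48.4% over the whole genome and 47.1% on chromosome 17, where all of the genes but SCD lie. Much of this length was not the same stretch. Only 108.6 kb was covered in both lists, 52.5% of the control length (39.7% over the whole genome), and 70.7 kb was covered after knockdown alone, all of it in ACACA. Without ACACA the covered length was 109.8 kb in the control and 47.7 kb after knockdown, or 43.5%. The total also depended on the calling limit, being 63.9% at a fold enrichment of at least 5 (22.99% over the whole genome) and 31.1% when the false discovery rate (FDR) was limited to 5% (7.65%).

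**Figure D1:**
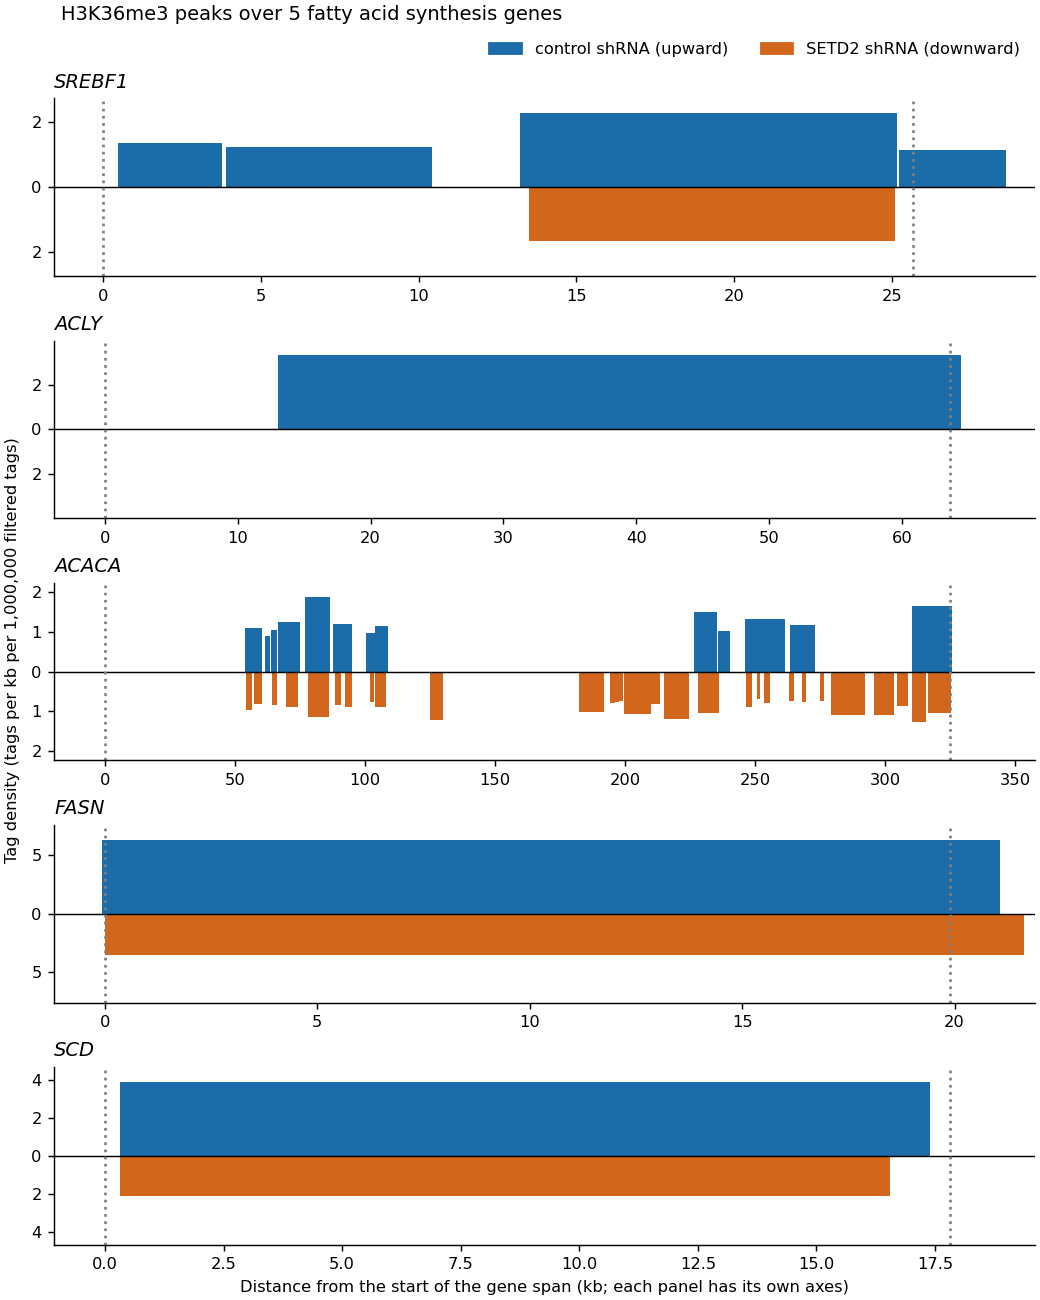
H3K36me3 peaks over the 5 genes, drawn by distance in kb from the start side of each gene span (dotted lines mark the ends of the span) with bar height giving the tag density in tags per kb per 1000000 filtered tags, control peaks upward and SETD2 knockdown peaks downward, each panel on its own axes. FASN and SCD keep a single block of nearly the same width, ACLY has a control block of 51.4 kb with no knockdown peak, SREBF1 keeps 1 of 4 peaks, and ACACA has 13 control and 29 knockdown peaks.

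SREBF1 lies on chromosome 17 from 17714663 to 17740325 on the minus strand. In the control it carried 4 peaks over 86.5% of its 25.7 kb span, and after knockdown 1 peak over 45.1%, so that 52.2% of the covered length was kept. The peak present in both lists lay over the later stretch of the gene, 13.2 to 25.2 kb from its start in the control and 13.5 to 25.1 kb after knockdown. Tag density, the number of immunoprecipitated tags per kb per 1000000 filtered tags, was 2.28 in that control peak (Poisson interval 2.16 to 2.41) and 1.66 in the matching knockdown peak (1.57 to 1.75). The log2 ratio of knockdown over control was -0.46 (exact conditional binomial interval -0.57 to -0.35), which compares the pooled libraries and not the conditions.

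The SREBF1 peaks nearer the start were called in the control alone. They lay 0.473 to 3.77 kb and 3.91 to 10.4 kb from the start, with densities of 1.37 and 1.26. The authors' fold enrichment over input, a value used here only to rank peaks within a list, was 5.04 and 5.49 for these, at percentiles 53.3 and 60.2 of the control list, and 17.27 for the kept peak, at percentile 97.8. The remaining control peak, with a density of 1.16, had only 12.8% of its width inside the span and ran on past the end of the gene, where SREBF1 and RAI1 overlap in the RefSeq gene table. Because the densities of these 3 weaker control peaks enter the control sum only, the density over all SREBF1 peaks was 1.75 in the control (1.67 to 1.82) and 1.66 after knockdown, with a log2 ratio of -0.07 (-0.17 to 0.03). Taken per kb of the whole span in place of per kb of peak, tags in peaks gave SREBF1 a ratio of -1.07. SREBF1 also hosts the microRNA gene MIR33B, and ChIP-seq cannot assign the mark to one of 2 overlapping genes.

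ACLY spans 40023161 to 40086795 of chromosome 17 on the minus strand. A single control peak of 51.4 kb, wider than 99.7% of the control list, covered 79.6% of the span. It ran from 13.0 kb after the start of the span to 790 bp past its end. It held 8129 tags at a density of 3.30 (3.23 to 3.37), the third highest of the 5 genes after FASN and SCD, and its fold enrichment of 13.86 ranked 1711 of 35375. No knockdown peak overlapped it. A missing call sets no density for the knockdown, since tags outside peaks are not in the lists.

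Among all control peaks, 60.5% had no knockdown peak, but fewer did among peaks like that of ACLY. In the decile with the highest fold enrichment, 339 of 3538 (9.58%) had none. Of the 98 control peaks at least as wide and as enriched as the one over ACLY, 28 had none (28.6%). Of windows as long as ACLY, tiled along chromosomes 1 to 22 and X, with at least its control covered length, 17 of 399 (4.26%) held no knockdown peak. Gene bounds and window bounds are placed differently, so these shares are a description.

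The caller's score, 10 times the negative log10 of the p-value against input, did not follow enrichment at the ACLY peak. It was 280.28, with an FDR of 3.71%, while the narrower FASN and SCD control peaks both had 3100. The kept SREBF1 control peak also had exactly 3100, at a fold enrichment of 17.27 against 24.92 for FASN. The score therefore does not order these peaks. Low scores at peaks with many tags were not rare. Of the 477 control peaks above 5000 tags, 131 scored under 500 (27.5%), ACLY among them. Of the 19 knockdown peaks above 5000 tags, 36.8% did. Of the 131 low-scoring control peaks 72.5% (exact Clopper-Pearson interval 64.0 to 80.0%) had a knockdown peak, and of the 346 scoring 500 or more 62.7% (57.4 to 67.8%) did. Whether the score played a part in the missing ACLY call was not tested. Next to ACLY, the 50 kb beyond its end had 26.7 kb covered in the control and 18.3 kb after knockdown, with 5 knockdown peaks, and the 50 kb before its start had 17.9 kb and 0 kb.

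ACACA, from 35441927 to 35766902 of chromosome 17 on the minus strand, was the only one of the 5 genes with more covered length after knockdown, 131.7 kb against 97.0 kb, or 135.7% of the control, of which 60.9 kb was covered in both lists. It carried 13 control peaks over 29.9% of its 325.0 kb span and 29 knockdown peaks over 40.5%. Of windows as long as ACACA with a control peak, 8.53% of 4551 had more covered length after knockdown, and of those with at least the control covered length of ACACA, 0.932% of 644 did. The direction depended on the calling limit. ACACA still had more covered length after knockdown with a score of 100 or more (114.8%) and with a score of at least 227.88 in both lists (119.7%, 12 peaks against 9). With an FDR of 5% or less the control kept 9 ACACA peaks (74.5 kb) and the knockdown 1 (9.65 kb), and at a fold enrichment of at least 5 the knockdown had 95.02% of the control length. The knockdown immunoprecipitate was the more deeply sequenced, with 67053273 filtered tags against 47880817, and the part of depth in this result was not tested.

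The control peaks of ACACA lay in 3 stretches, at 54.0 to 108.9 kb, 226.3 to 273.0 kb and 310.5 to 325.5 kb from the start, so that the first 54.0 kb of the span held none in either list. RefSeq places 3 promoters in ACACA, in windows ending at 37407086, 37359346 and 37300017 on GRCh38.p14, so the gene has starts farther along its minus strand. Which of them was in use in these cells was not tested. The gene C17orf78 lies inside ACACA in the RefSeq table. Of the 29 knockdown peaks, 12 overlapped no control peak (17.0% of the whole knockdown list overlapped none), and they covered 69.3 kb between the control stretches. In the 117.4 kb between the first and the second stretch 8 such peaks covered 42.8 kb at a density of 1.05 (1.02 to 1.09). In the 37.6 kb before the last stretch 4 covered 26.5 kb at 1.05 (1.003 to 1.099). The densest of the 12 was a peak of 5.06 kb, 124.8 to 129.9 kb from the start, at 1.23, and the only one with an FDR of 5% or less was a peak of 9.65 kb, 215.0 to 224.7 kb from the start, with a density of 1.21, a fold enrichment of 6.15 and an FDR of 4.18%. The median FDR of the 12 was 50.7% (from 4.18 to 87.2%).

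Where ACACA peaks of the lists overlapped, density was lower after knockdown, at 1.356 over the 12 control peaks and 0.974 over the 17 knockdown peaks concerned, with a log2 ratio of -0.48 (-0.54 to -0.42). Among all peaks, single control peaks ran from 0.888 to 1.87 (median 1.16) and single knockdown peaks from 0.703 to 1.26 (median 0.884). Over all peaks of the gene the density was 1.348 in control cells (1.32 to 1.38) and 1.02 after knockdown (0.994 to 1.04), with a log2 ratio of -0.41 (-0.46 to -0.36). That value was -0.72 with the density outside peaks taken off and -0.20 with an FDR of 5% or less, and it turned to 0.033 with tags in peaks taken per kb of span. For scale, the density outside all peaks was 0.235 in the control and 0.337 after knockdown. The densest control peak lay 77.0 to 86.4 kb from the start, at 1.87, over a knockdown peak at 1.14, and the last one, over the end of the gene, had 1.64 and was called after knockdown as 2 peaks at 1.26 and 1.04. Of the 12 kept control peaks of ACACA, 5 were overlapped by 2 or more knockdown peaks, against 26.5% of all kept control peaks.

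FASN, from 80036214 to 80056106 of chromosome 17 on the minus strand, had the densest block of the mark among these genes. In each list 1 peak lay over the whole gene, 21.2 kb wide in the control and 21.6 kb after knockdown, covering 100% and 99.9% of the span and running 1186 and 1734 bp past its end. Density was 6.34 in the control (6.18 to 6.49) and 3.53 after knockdown (3.44 to 3.63), so it was 1.79 times higher in the control while the extent was nearly the same. The log2 ratio was -0.84 (-0.90 to -0.79). The highest points of both peaks lay 24 bp apart, at 5.06 and 5.08 kb from the start, towards the beginning of the gene. By fold enrichment the FASN peak ranked 92 of 35375 in the control (24.92) and 358 of 23488 after knockdown (8.26). Of windows as long as FASN that were covered throughout in the control, 30.8% of 1149 held no knockdown peak.

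SCD, the one gene on chromosome 10, spans 102106772 to 102124588 on the plus strand. Its peak began at the same base in both lists, 324 bp after the start, and ended 425 bp before the end of the span in the control and 1256 bp before it after knockdown, so 95.1% of the covered length was kept. Density was 3.91 in the control (3.77 to 4.05) and 2.11 after knockdown (2.02 to 2.20), 1.85 times higher in the control, and the log2 ratio was -0.89 (-0.97 to -0.81). By fold enrichment it ranked 466 of the control peaks (19.08) and 897 of the knockdown peaks (7.01). The shortest of the 5 genes was thus among those with the largest difference in density and the smallest in extent.

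**Figure D2:**
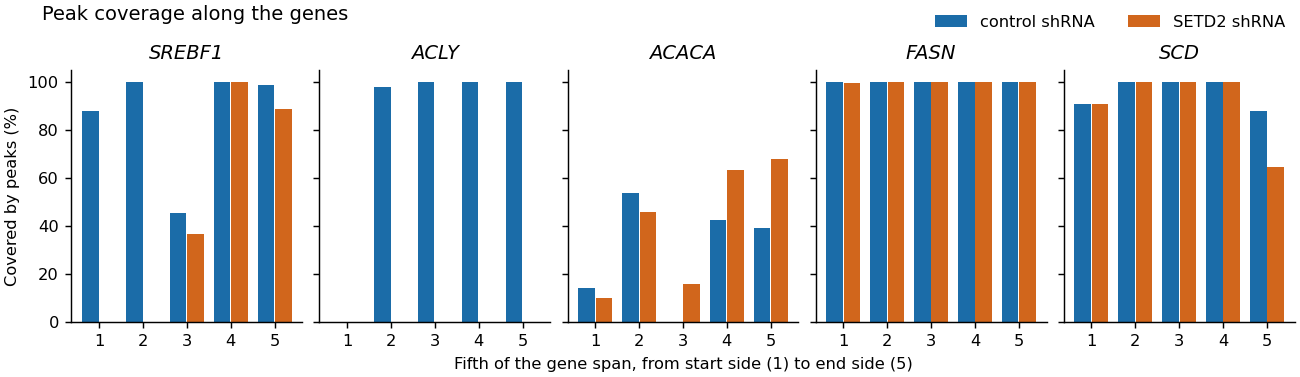
Share of each of 5 equal segments of the gene span covered by peaks, in percent, from the start side (1) to the end side (5), for control and SETD2 knockdown cells. SREBF1 has knockdown peaks over segments 3 to 5 alone, ACACA has more coverage after knockdown over segments 3 to 5, and FASN and SCD are covered nearly throughout in both.

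Along the genes, the loss of called length was uneven. In SREBF1 the first 2 of 5 equal segments went from 88.0% and 100% covered in the control to 0% after knockdown, and the fourth stayed at 100%. In SCD the difference was at the other side, with 88.1% of the last segment covered in the control and 64.8% after knockdown and the same 90.9% of the first segment in both. In ACACA the first 2 segments were covered less after knockdown (14.1 and 53.6% in the control, 9.80 and 45.9% after knockdown), and the last 3 were covered more (0, 42.3 and 39.2% against 15.8, 63.3 and 67.8%). In ACLY the first segment of the span was bare in both lists, and where the RefSeq starts of ACLY lie within that span was not worked out.

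**Figure D3:**
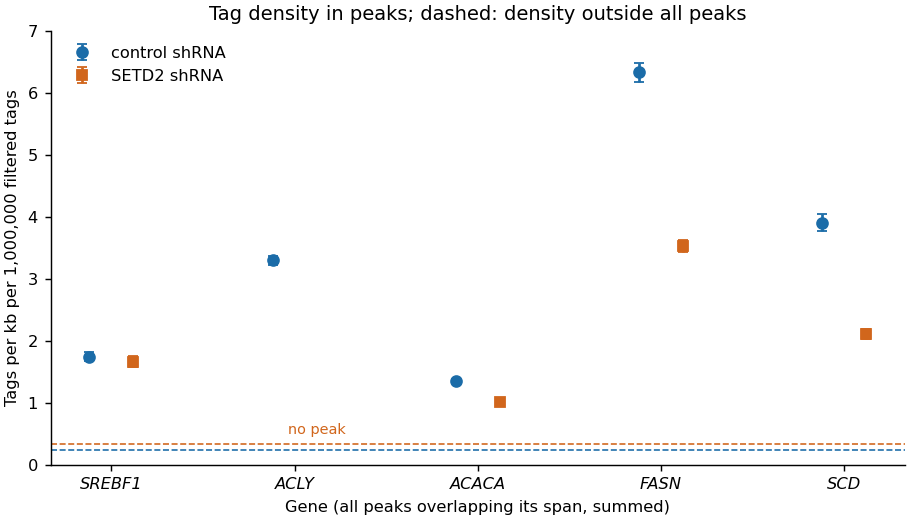
Tag density over all peaks of each gene, per kb and 1000000 filtered tags, with exact Poisson intervals (95%); circles are the control, squares the SETD2 knockdown, and dashed lines the density outside all peaks of each list (0.235 and 0.337). FASN, SCD and ACACA are lower after knockdown beyond their intervals, the SREBF1 intervals overlap, and ACLY has no knockdown peak.

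By tag density the control order was FASN (6.34), SCD (3.91), ACLY (3.30), SREBF1 (1.75) and ACACA (1.348), and no interval reached that of a neighbour. After knockdown the 4 genes with a peak stood in the same order, FASN (3.53), SCD (2.11), SREBF1 (1.66) and ACACA (1.02), again with no overlap of neighbouring intervals.

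Of the peaks in these genes, 9 control peaks formed a matched pair with a knockdown peak, each covering at least 50% of the other: 1 in SREBF1, 6 in ACACA, 1 in FASN and 1 in SCD. All 9 had a lower density after knockdown, as did 98.1% of the 7543 matched pairs of the genome, so a lower density was the rule and not a mark of these genes. In 8 of the 9 the interval of the ratio lay below 0, and in 1, an ACACA pair at -0.30 (-0.69 to 0.09), it did not. The 9 log2 ratios ran from -0.89 (SCD) to -0.30, with a median of -0.55, where the median of all pairs was -0.59 (quartiles -0.81 and -0.38) and that of chromosome 17 was -0.73. Of all pairs, 21.2% had a lower ratio than FASN and 17.8% a lower one than SCD.

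Set among the 1918 pairs whose control peak was in the highest decile of fold enrichment, with a median log2 ratio of -0.87 (quartiles -1.05 and -0.72), FASN and SCD lay near the middle, at percentiles 54.7 and 47.9. SREBF1 lay at percentile 94.99 of the same pairs, towards the smallest differences, and the 2 ACACA pairs of that decile at percentiles 75.7 and 82.0. The pair at 82.0 set the last control peak of ACACA (1.64) against 1 of its 2 knockdown peaks, the less dense one (1.04, where the other had 1.26). The highest points of the paired peaks were 275 bp apart in SREBF1 and 393 bp in SCD, against a median of 308 bp for all pairs, and 24 bp in FASN. In the 6 ACACA pairs they were farther apart, from 284 to 10132 bp with a median of 705.5 bp, and 5 of the 6 were above the median of all pairs. The 10132 bp belonged to the last control peak, whose highest point lay 312.614 kb from the start. Its other knockdown peak, outside the pairs, had its highest point at 312.632 kb, so this value reflects which of the 2 was paired.

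**Figure D4:**
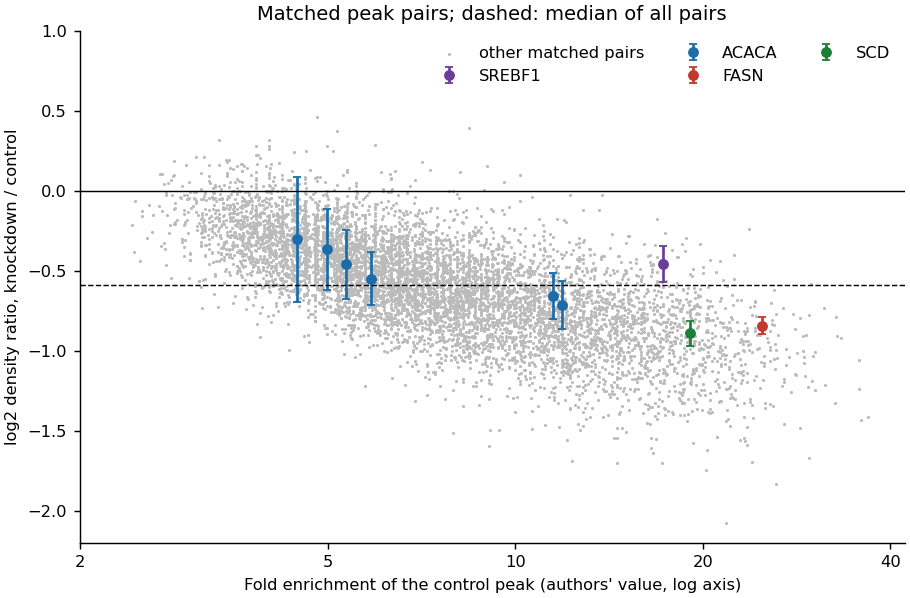
Log2 ratio of tag density (knockdown over control) against the authors' fold enrichment of the control peak (log axis) for all 7543 matched peak pairs in grey and the 9 pairs of these genes in colour, with exact conditional 95% intervals; the dashed line is the median of all pairs (-0.59). FASN (-0.84) and SCD (-0.89) lie within the cloud at their enrichment, SREBF1 (-0.46) lies towards its upper side, and the ACACA pairs run from -0.71 to -0.30.

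Under the FDR limit of 5%, 16 of the 20 control peaks and 4 of the 32 knockdown peaks passed, against 50.5% and 5.30% of the whole lists. The 4 knockdown peaks were those of FASN, SCD and SREBF1, each with an FDR of 0%, and the ACACA peak already described. The control peaks that did not pass were 4 of the 13 in ACACA. By fold enrichment the 20 control peaks had a median percentile of 62.6 in their list, 13 of them being ACACA peaks, while the strongest peak of each gene lay between percentile 92.4 (ACACA) and 99.7 (FASN).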

How the data were processed

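H3K36me3 ChIP-seq of HepG2 cells was compared between a control shRNA and a SETD2 shRNA. Reads were aligned to hg19, and Bowtie 1.1.2 and FastQC 0.11.5 are named, per the submitters' processing notes. MACS 1.4.2 called the peaks on 1 merged immunoprecipitate per condition against 1 merged input, per the file headers, with a p-value limit of 1e-05, a fragment size of 294 bp and 1 duplicate tag per position. The deposited tag counts per peak are not normalized. The deposited score is 10 times the negative log10 of the caller's p-value, the deposited fold enrichment is a ratio over the local input background, and the deposited FDR is in percent.

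Filtered immunoprecipitated tags, per the file headers, numbered 47880817 for control cells and 67053273 for the knockdown, and input tags 67158956 and 69095038. Peaks were assigned to the 5 gene spans at 1 bp, covered length was clipped to the span, and tag density was taken over whole peaks with exact Poisson intervals. Strands are from textbook knowledge. Matched pairs overlapped each other by at least 50%. All 5 genes and all their peaks are described. The genes and lists were chosen with earlier results of these data known. A list of other lipid synthesis genes was not run, since their spans on hg19 were not used here, and no likeness between genes was ranked. Alternatives were limits on FDR, score and fold enrichment, the shorter lists, other spans, other depths and tags per kb of span. A common score limit of 227.88 and taking off the density outside peaks were added after the data were seen. The shorter lists held exactly the peaks with an FDR of 5% or less. Neighbouring genes are named from RefSeq on GRCh38.p14. Python 3.11.15, pandas 2.3.3, NumPy 2.4.6, SciPy 1.17.1 and matplotlib 3.10.9 were used. Peak overlap, covered length, Poisson intervals and density ratios were tested on simulated peaks. The tiling of windows, the matching of pairs and the motif search were not.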

Additional observations from a re-analysis of the deposited data

How the results depend on the processing

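Genes with a peak numbered 5 for control cells and 4 for the knockdown under every limit and span tried. For ACLY, with no knockdown peak in the full list, stricter limits and shorter spans could not have added one. Only the extension of the span by 5 kb could have, and it brought none. The covered length after knockdown over the 5 spans as a percentage of the control (86.7%) was 76.9% with a score of 100 or more, 74.3% with the common score limit of 227.88 (added after the data were seen), 63.9% at a fold enrichment of at least 5 and 31.1% with an FDR of 5% or less or the shorter lists. It was 83.8% with spans extended by 5 kb and 85.5% over whole peaks. For ACACA alone the value of 135.7% became 95.02% at a fold enrichment of at least 5 and 12.9% with an FDR of 5% or less or the shorter lists; fewer knockdown peaks passed those limits. The log2 density ratio had a median of -0.63 over the 4 genes with a knockdown peak, so ACLY did not enter it. This median was -0.52 under the FDR limit or the shorter lists and -0.56 with extended spans. It was -0.82 with the density outside peaks taken off, also added later. With tags in peaks taken per kb of span the median was -0.90. The ratio of ACACA then turned from -0.41 to 0.033, since more of its length was called after knockdown. For SREBF1 this setting gave -1.07. Extending the spans by 5 kb brought a second control peak to FASN, whose ratio was then -0.68.

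The median percentile of the control peaks was 64.1 by tags per kb. The share of all control peaks kept was 27.8% when at least 50% of the peak had to be covered. With 1 mismatch allowed, the sterol element core was in 3 of the 7 promoter windows, against 24.5% of all. No paired analysis was possible because the authors merged the replicates before calling peaks, and for the same reason no replicate could be left out. Densities of single peaks are limited by counting error only as far as the intervals show, and the spread between cultures is unknown.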

Other observations

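The 50 kb on either side of the other genes differed in how much of the mark they held. Lengths beyond an end include the parts of the gene's own peaks that run past it. These were 1186 bp in the control and 1734 bp after knockdown for FASN, and 550 and 331 bp for ACACA. In the control they were 2942 bp for SREBF1 and 790 bp for ACLY. Beyond the end of FASN, where DUS1L, GPS1 and RFNG follow in the RefSeq gene table, 27.1 kb was covered in the control and 6.23 kb after knockdown, while before its start 3.24 kb was covered in the control and 0 kb after knockdown. The covered length after knockdown was thus a larger part of that in the control over FASN itself than over either flank. Before the start of ACACA, on the side of TADA2A and DUSP14, 38.9 kb was covered in the control and 26.6 kb after knockdown, and beyond its end, on the side of AATF, 12.9 kb and 1.83 kb. With all listed peaks, covered length was thus larger after knockdown in ACACA but not in the 50 kb on either side. Within ACACA it was smaller after knockdown at a fold enrichment of at least 5 (95.02%) or an FDR of 5% or less (12.9%). The flanks were not compared at those limits. Beyond the end of SREBF1 14.6 kb stood against 4.15 kb, and no peak was called before its start in either list. SCD stood nearly alone, with no peak in the 50 kb before its start and 2.84 kb against 1.18 kb beyond its end.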
